A study of Mus musculus with 6 samples.

Results

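The Dlk1-Dio3 cluster is an imprinted region of mouse chromosome 12, and its RNA was compared between wild-type (WT) and Smad2/3 double knockout (DKO) epiblast-like cells (EpiLCs). The 8 genes described here are the long non-coding RNAs Meg3, Rian and Mirg, the coding genes Dlk1, Rtl1 and Dio3, and the flanking coding genes Begain and Ppp2r5c. They were taken by symbol from the 24288 genes of the deposited table, and where a gene had several entries, 1 was chosen by its total reads over all 6 libraries (17 rows in all gave 8 genes). These totals do not use genotype, but the set was proposed with earlier results of these data known, so the adjusted p-values given for its members describe these libraries and are not independent support.

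EpiLCs are embryonic stem cells (ESCs) that have left the naive state and resemble the early post-implantation epiblast. All libraries came from XY, feeder-free ESCs of strain 129/Sv//Ev kept in 2i + LIF. They were then grown for 48 h (day 2) on fibronectin in N2B27 with activin A at 20 ng/ml, Fgf2 at 12 ng/ml and KSR. WT was the CCE line, and DKO was clone KT15.1F6, in which a CRISPR nickase removed the start of Smad3 in ESCs homozygous for Smad2tm1Rob. Each genotype had 3 libraries from independent differentiations of that line, so differences between the lines that are unrelated to the knockout cannot be told apart from it. In bulk RNA, fewer cells of a type and less RNA per cell cannot be told apart either.

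In this cluster the parental origin of a chromosome sets which genes are read. The maternal copy is transcribed through Meg3, Rian and Mirg as non-coding RNA that also carries snoRNAs and a large group of miRNA hairpins, whereas Dlk1, Rtl1 and Dio3 are transcribed from the paternal copy. DNA methylation between Dlk1 and Meg3 separates the parental states, and expression of the maternal transcripts is known to vary among cultured stem cell clones. The libraries hold no allelic information here, so maternal and paternal refer to textbook knowledge and were not measured.

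The hairpins opposite Rtl1 show how the maternal and paternal transcripts face each other. Rtl1 lies on the minus strand, and 6 hairpins lie on the plus strand within its span (chr12:109589193-109600330, mm10). Of their 11 mature miRNAs in RefSeq (GRCm38.p6, the build of mm10), 11 were complementary over their whole length to the coding part of the Rtl1 transcript, as follows from their position on the opposite strand. None of the 103 other mature miRNAs of the cluster was. The 5′ arm of each hairpin, or the sole annotated arm for miR-432, is printed 5′ to 3′ with its seed (bases 2 to 8) in capitals.
miR-431-5p: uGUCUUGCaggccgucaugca
miR-433-5p: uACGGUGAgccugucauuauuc
miR-127-5p: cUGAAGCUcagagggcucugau
miR-434-5p: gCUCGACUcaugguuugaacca
miR-432: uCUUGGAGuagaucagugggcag
miR-136-5p: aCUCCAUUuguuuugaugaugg

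The facing sites for 3 of them, read 5′ to 3′ along the 6358-base Rtl1 transcript of GENCODE M21, show the stretch that pairs with the seed in capitals.
site of miR-431-5p: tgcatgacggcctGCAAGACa
site of miR-127-5p: atcagagccctctgAGCTTCAg
site of miR-136-5p: ccatcatcaaaacaAATGGAGt
The site of miR-431-5p lies at bases 5072 to 5092 of the transcript, that of miR-127-5p at bases 2676 to 2697 and that of miR-136-5p at bases 199 to 220.

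All 61 hairpin entries of the cluster matched RefSeq, giving 114 mature miRNAs with 104 different seeds. Only 10 seeds occurred in more than 1 hairpin, each in 2. Of these pairs 3 are printed as examples, all from the stretch between Rian and the end of Mirg, with the shared seed again in capitals.
miR-379-5p: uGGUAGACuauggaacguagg
miR-1193-5p: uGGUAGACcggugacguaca
miR-379-3p: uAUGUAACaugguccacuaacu
miR-411-3p: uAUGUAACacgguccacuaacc
miR-494-5p: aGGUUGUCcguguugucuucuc
miR-410-5p: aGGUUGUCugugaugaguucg
They are miR-379-5p with miR-1193-5p, miR-379-3p with miR-411-3p, and miR-494-5p with miR-410-5p.

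Library depth was 57644143 to 63046034 reads, counting 1 entry for each gene. Values are normalized reads, which are reads over a gene body divided by the size factor of the library. Smad3, whose exon 1 was deleted, served as a check of the labels and fell from 839 ± 37.0 (SD, n = 3) in WT to 23.6 ± 6.16 (SD, n = 3) in DKO, with an adjusted p of 4.40e-23 in limma. Markers counted here as higher or lower had an adjusted p under 0.05 in limma and a fold change over 1.5. Across all genes tested, 7.34% were higher and 8.03% lower by this rule. Smaller differences, such as in Otx2, Dnmt3b and Pou5f1 (log2 fold changes 0.23, -0.11 and -0.07), are not counted. Of the 7 epiblast-like markers, 1 was higher and 3 were lower in DKO. Their summed level was 106275 to 110000 normalized reads in WT and 102653 to 104099 in DKO. Naive markers were higher for 6 of 7 genes, with sums of 3041 to 3244 in WT and 5344 to 5523 in DKO. All 6 tested trophoblast markers of 7 were higher, with sums of 382 to 408 in WT and 1318 to 1536 in DKO, and Elf5 was at or near 0 in both. Of 9 fibroblast markers 2 of 6 tested were lower and none higher, with sums of 1625 to 1699 in WT and 525 to 572 in DKO, and Postn was at 0 in WT. Most of that sum was Dcn, at 1330 ± 51.3 in WT and 300.4 ± 16.9 in DKO (SD, n = 3). Col1a2 was the other lower gene. Col3a1, Thy1 and Pdgfrb had positive log2 fold changes of 0.36, 0.11 and 0.11, and Col1a1 had a negative one of -0.53. None of these passed the test. Primitive endoderm markers had 2 higher of 6 tested (sums of 99.9 to 123 and of 173 to 187), and the neural and myogenic lists each had 1 higher and 1 lower of 4 tested.

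The non-coding RNAs were far more abundant than the coding genes between which they lie. In WT, Rian had the highest level for its length among the 8 genes, at 457 ± 6.77 normalized reads per kb of gene body (SD, n = 3). It was followed by Mirg at 295 ± 5.26 and Meg3 at 277 ± 11.4 (SD, n = 3). Ppp2r5c had 66.2 ± 1.96, Dio3 10.9 ± 1.94, Dlk1 6.95 ± 0.78, Begain 2.09 ± 0.06 and Rtl1 0.33 ± 0.12 normalized reads per kb (SD, n = 3). In DKO Rian was again the highest, followed by Mirg at 460 ± 43.3 and Meg3 at 370 ± 36.9 (SD, n = 3). Neighbours in this order did not overlap between libraries of a genotype, except Dio3 and Dlk1 in DKO. The order rests on annotated lengths, and whether these match the counted bases was not established. Among all 24288 genes, without regard to length, Rian ranked 84 in WT and 41 in DKO.

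**Figure D1:**
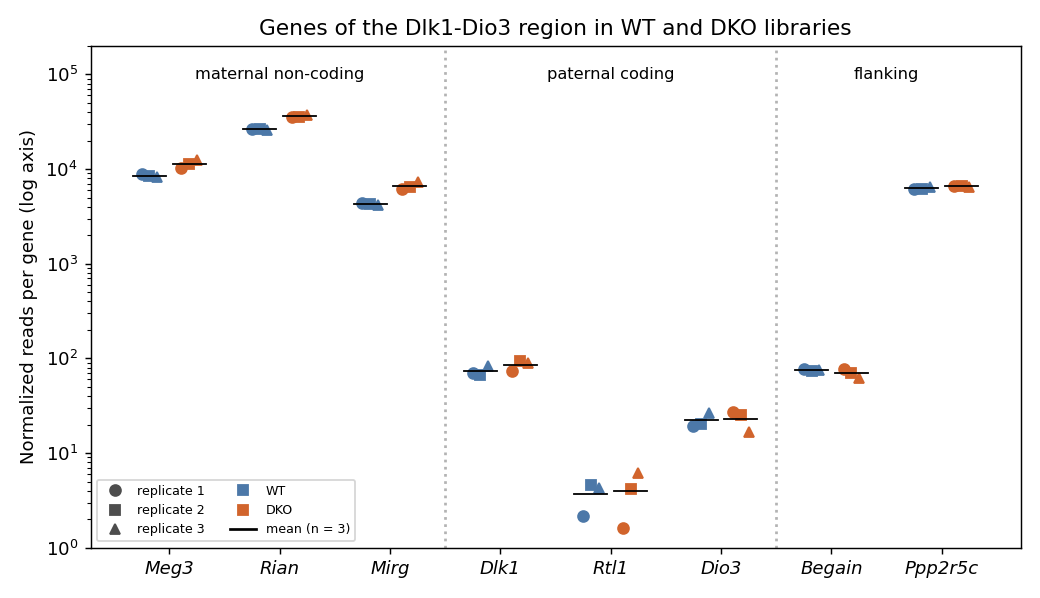
Normalized reads of each gene (vertical log axis) in the 3 WT libraries (blue) and 3 DKO libraries (orange), with symbols for replicates and a line at each mean. For Meg3, Rian and Mirg every DKO library lies above every WT library, while the groups overlap for Dlk1, Rtl1, Dio3, Begain and Ppp2r5c.

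All 3 non-coding RNAs had higher values in DKO than in WT, by 33.7% for Meg3, 37.5% for Rian and 55.8% for Mirg. A gene was called changed when its adjusted p was under 0.05 and its fold change was over 1.5 (0.58 on the log2 scale). By this rule 1 of the 7 tested members, Mirg, was called higher and none lower. Across all 17038 genes tested, 7.34% were called higher and 8.03% lower. At an adjusted p under 0.05 alone, 3 members were higher, against 27.1% of all genes. The naive and trophoblast marker sums given above were higher in DKO as well, and the fibroblast sum, mostly Dcn, was lower. The part of these marker differences in the values of the non-coding RNAs was not tested.

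Rian, which hosts box C/D snoRNAs, had 26247, 26816 and 26067 normalized reads in the WT libraries and 35681, 35470 and 37665 in DKO. Every DKO library was above every WT library, as in 29.7% of all genes tested. The log2 fold change was 0.46 ± 0.02 (SE), with a 95% interval from 0.41 to 0.51 and an adjusted p of 1.17e-15 in limma, under the fold threshold.

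Meg3, a nuclear RNA whose transcription starts the maternal unit, had 8878, 8403 and 8199 normalized reads in WT. The DKO libraries had 10250, 11297 and 12514, with replicate 3 the highest. Its log2 fold change was 0.41 ± 0.04 (SE), 95% interval 0.33 to 0.50, with an adjusted p of 1.91e-09 in limma, again under the fold threshold. The 3 Meg3 entries differ in the ends of their matched GENCODE M21 spans. Reads were therefore subtracted between entries to approach the proximal and distal parts. The proximal part, before the start of the shortest 5′ end, went from 1622 ± 80.0 to 2202 ± 172 normalized reads (SD, n = 3), a log2 ratio of 0.44. The distal part, beyond the end of the entry that stops earliest, went from 495 ± 63.9 to 667 ± 44.3 (SD, n = 3), a log2 ratio of 0.43. Both log2 ratios were thus of similar size. Which bases each subtraction covers was not established, because matched spans did not always account for the counts. For example, Ppp2r5c entries with the same matched span had 10637 and 11345 reads in WT replicate 1.

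Mirg, the most distal of these hosts and the one that spans many miRNA hairpins, had 4352, 4263 and 4201 normalized reads in WT and 6162, 6445 and 7360 in DKO. The groups did not overlap, and DKO replicate 3 was again the highest. The log2 fold change of 0.64 ± 0.04 (SE) had a 95% interval from 0.55 to 0.72 that includes the fold threshold, and the adjusted p was 9.58e-14 in limma. Without DKO replicate 3 it was 0.56 and Mirg was no longer called changed, since its fold was then under 1.5, so that the count of called members became 0.

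**Figure D2:**
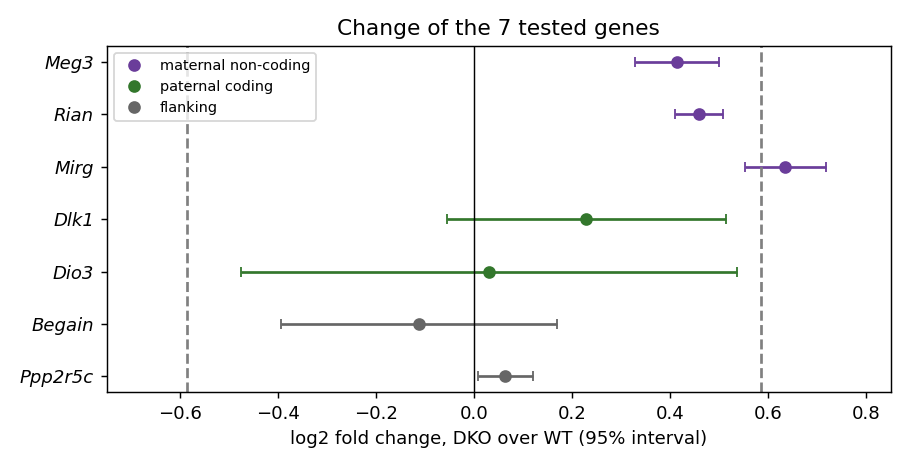
Log2 fold change of DKO over WT (horizontal axis) with its 95% interval for the 7 tested genes, and dashed lines at a fold of 1.5. Meg3, Rian and Mirg lie to the right of 0, and the intervals of Dlk1 and Dio3 span both 0 and the values of Meg3 and Rian.

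Within the summed reads of the 3 non-coding RNAs, Mirg took a larger share in every DKO library than in any WT library. Mirg took 10.9% ± 0.11 of them in WT and 12.2% ± 0.49 in DKO (SD, n = 3), whereas Rian took 67.4% ± 0.79 and 66.9% ± 1.53 (SD, n = 3). Within libraries, the log2 ratio of Mirg to Meg3 was -1.03, -0.98 and -0.96 in WT and -0.73, -0.81 and -0.77 in DKO. This is a difference of 0.22 without overlap, with an exact two-sided permutation p of 0.1, the smallest that 3 against 3 libraries allow. The log2 ratio of Mirg to Rian differed by 0.18, also without overlap and with the same exact p of 0.1. The ratio of Meg3 to Rian overlapped between the groups, with a difference of -0.04 and an exact permutation p of 0.6, so a difference between Meg3 and Rian was not shown. These ratios were chosen after the values were seen. For the values of single genes, 59.0% of all genes tested had no overlap between the groups in either direction. The share among ratios between genes was not computed.

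The cluster also holds 68 short entries between Dlk1 and Dio3, of which 61 are miRNA hairpins and 7 are snoRNAs. The libraries were made from long fragments of total RNA, so reads over these entries come from host transcripts and say nothing of mature miRNAs. Entries inside Meg3, Rian or Mirg share the reads of their host, and neighbouring entries can share read pairs, so they are not independent of each other. Of the 59 that passed the filter on low reads, 59 had a positive log2 fold change, with a median of 0.61 and a range from 0.32 to 0.91, against a median of 0.00 over all genes. In 54 of them every DKO library was above every WT library, as in 16.6% of the 622 miRNA and snoRNA entries elsewhere in the genome. Changed by the rule above were 33, all higher, which is 55.9% of those tested, against 4.34% of the entries elsewhere. Without DKO replicate 3 the number was 16.

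**Figure D3:**
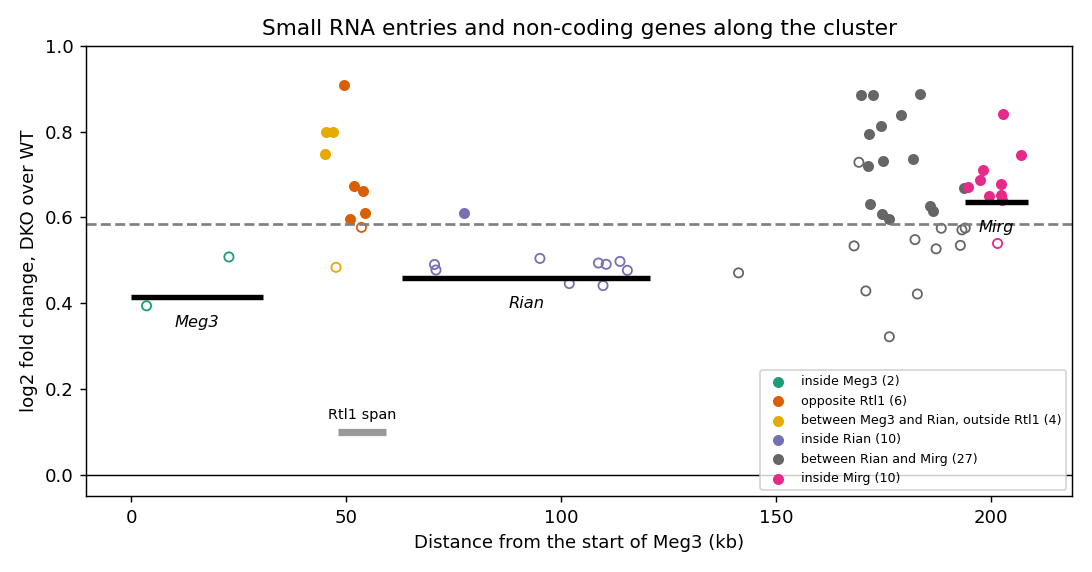
Log2 fold change of DKO over WT (vertical axis) for the tested small RNA entries, placed by their distance in kb from the start of Meg3. Filled points were called changed, black bars are the bodies of Meg3, Rian and Mirg, and the dashed line is a fold of 1.5. All points lie above 0, with most points inside Rian under the dashed line and most inside Mirg above it.

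By position, entries inside Rian had a median log2 fold change of 0.49 (10 tested, 1 called higher), close to that of Rian. Entries inside Mirg had a median of 0.67 (10 tested, 9 called higher). The 27 tested entries between Rian and Mirg, where none of the 3 long entries is annotated, had a median of 0.62, and 15 were called higher. Their summed level was 716, 812 and 822 normalized reads in WT and 1164, 1159 and 1317 in DKO, so reads between the annotated hosts were also higher in every DKO library than in any WT library. The 2 entries inside Meg3, Mir1906-1 and Mir770, had log2 fold changes of 0.39 and 0.51. Between Meg3 and Rian, outside the span of Rtl1, the 4 tested entries had a median of 0.77, and 3 were called higher. That was the highest median of any stretch, from entries averaging 8.03 to 82.5 normalized reads in WT.

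The snoRNAs of Rian, of the class that guides methylation of other RNAs, were the most covered short entries. AF357359 had 530, 569 and 547 normalized reads in WT and 718, 756 and 761 in DKO, with a log2 fold change of 0.44 ± 0.05 (SE). DQ267102 had 419, 419 and 422 in WT and 584, 575 and 595 in DKO, with a log2 fold change of 0.48 ± 0.06 (SE). The others of the 6 with the most reads were AF357355, DQ267100, AF357426 and DQ267101, with log2 fold changes of 0.50, 0.49, 0.45 and 0.49. All 7 snoRNAs lay between 0.44 and 0.50, the groups did not overlap for any of them, and none reached the fold threshold.

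Opposite Rtl1, the 6 hairpins whose miRNAs are printed above had a median log2 fold change of 0.64, and 5 were called higher. Their summed level was 326, 323 and 318 normalized reads in WT and 444, 480 and 597 in DKO, where replicate 3 was highest. Mir127 had 44.1, 37.0 and 42.7 in WT and 57.6, 63.6 and 79.3 in DKO. Mir136 had 60.7, 62.6 and 56.5 in WT and 79.1, 88.3 and 111 in DKO. The lncRNA entry 6430411K18Rik, which also lies on the plus strand in this span, had 699, 695 and 669 in WT and 937, 1016 and 1176 in DKO. Its log2 fold change was 0.59 ± 0.06 (SE), with an adjusted p of 1.06e-09 in limma, and it is named after its values were seen.

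Reads at the cluster were counted by strand, as far as overlapping entries show. The minus-strand hairpin Mir3071 had 1 read over all 6 libraries, while Mir136 on the plus strand across it had 859. Mir299b had 0 reads in all against 141 for Mir299a. Rtl1 itself had 43 reads over all libraries, while each of the 7 plus-strand entries inside its span had between 84 and 9723.

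The paternally expressed coding genes were low in both genotypes, and no difference between genotypes was detected for them. Dlk1, a transmembrane protein related to the Notch ligands, had 69.8, 66.6 and 82.1 normalized reads in WT and 73.7, 93.5 and 89.7 in DKO. The groups overlapped. The log2 fold change was 0.23 ± 0.14 (SE), with a 95% interval from -0.06 to 0.51 and an adjusted p of 0.166 in limma. The values of Meg3 and Rian lie within this interval.

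Dio3, the deiodinase that inactivates thyroid hormone, had 19.3, 20.5 and 26.7 normalized reads in WT and 26.9, 25.2 and 16.6 in DKO. The highest and the lowest value were both in DKO. Its log2 fold change was 0.03 ± 0.25 (SE), 95% interval -0.48 to 0.54, with an adjusted p of 0.927 in limma. The sign turned negative without WT replicate 1 (-0.06), WT replicate 2 (-0.02), DKO replicate 1 (-0.10) or DKO replicate 2 (-0.05).

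Rtl1, a retrotransposon-derived gene needed in the placenta and muscle, was close to the detection limit. It had 2.15, 4.55 and 4.27 normalized reads in WT and 1.61, 4.20 and 6.22 in DKO, which is 3 to 12 reads per library. It did not pass the filter on low reads and was not tested, and a difference was not detectable at this depth.

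The contrast between the maternal and paternal genes was next taken within each library, as the summed reads of Meg3, Rian and Mirg over those of Dlk1, Rtl1 and Dio3. This ratio was 432, 431 and 340 in WT and 509, 433 and 512 in DKO. On the log2 scale it was 8.64 ± 0.20 in WT and 8.92 ± 0.14 in DKO (SD, n = 3), a difference of 0.28 for which no test was planned, and the highest WT library lay just under the lowest DKO library. Without WT replicate 3, the lowest WT library, the difference was 0.16. The coding genes supplied 91.3, 91.6 and 113 normalized reads to it in WT and 102, 123 and 112 in DKO. The log2 ratio of Meg3 to Dlk1 was 6.99, 6.98 and 6.64 in WT and 7.12, 6.92 and 7.12 in DKO. The groups overlapped, and the difference of 0.18 had an exact two-sided permutation p of 0.3, where the smallest possible was 0.1. A difference in response between the maternal and the paternal genes was thus not shown with so few coding reads.

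**Figure D4:**
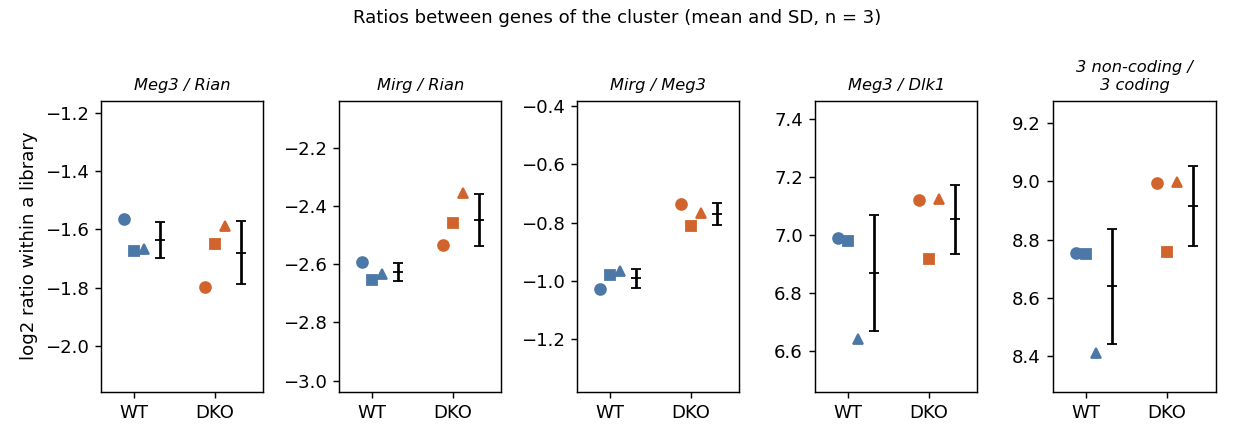
Log2 ratios of normalized reads within each library (vertical axes, each spanning 1 log2 unit) for the 3 WT (blue) and 3 DKO (orange) libraries, with mean and SD. Mirg to Rian and Mirg to Meg3 separate the genotypes, Meg3 to Rian and Meg3 to Dlk1 overlap, and the ratio of non-coding to coding reads is barely apart.

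The flanking genes differed little. Begain, which codes for a synaptic protein, had 77.4, 72.8 and 75.7 normalized reads in WT and 77.5, 69.3 and 62.7 in DKO, with a log2 fold change of -0.11 ± 0.14 (SE), 95% interval -0.39 to 0.17 and an adjusted p of 0.509 in limma. Ppp2r5c, a regulatory subunit of the phosphatase PP2A, had 6159, 6198 and 6500 normalized reads in WT and 6569, 6671 and 6461 in DKO. The log2 fold change of Ppp2r5c was 0.06 ± 0.03 (SE), 95% interval 0.01 to 0.12, with an adjusted p of 0.0506 in limma. Its interval ends under those of Meg3, Rian and Mirg. Other entries of Ppp2r5c with fewer reads passed 0.05, with log2 fold changes of 0.07 and adjusted p-values of 0.0253 and 0.0290 in limma. For the first of these, every DKO library was above every WT library. Both were far under the fold threshold, so whether Ppp2r5c passes 0.05 depends on the entry. None of the 5 nearest tested genes on either side was called changed. Dync1h1, the heavy chain of dynein, was 0.29 lower on the log2 scale in DKO (log2 fold change -0.29 ± 0.03 SE, adjusted p 5.90e-09 in limma), and the other 9 lay between -0.08 and 0.21.

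Start regions are shown for Meg3 and Dlk1, the leading gene of each parental side, because Smad proteins bind DNA. CAGAC, a Smad box, was searched on both strands in RefSeq windows from 250 bases before to 50 after the start (GRCm38.p6), together with the palindrome GTCTAGAC, which does not contain it. CAGAC occurs in 49.6% of all 32851 such windows and GTCTAGAC in 0.213%. The window at the first Meg3 start (chr12:109540746-109541045, plus strand) held 1 match to CAGAC. The Dlk1 window (chr12:109452573-109452872, plus strand) held 3, and neither held GTCTAGAC. This Dlk1 window holds the start, at 109452849, of the chosen Dlk1 entry, whose RefSeq identifier is of the non-coding class. The RefSeq gene begins further upstream, at 109452485. The other Dlk1 entries, all of the coding class, start at 109453455 to 109453535, outside this window, and have no window here. A second Meg3 window (chr12:109545148-109545447), not printed, held 1 match to CAGAC and no GTCTAGAC. Matches on either strand are in capitals.
Meg3: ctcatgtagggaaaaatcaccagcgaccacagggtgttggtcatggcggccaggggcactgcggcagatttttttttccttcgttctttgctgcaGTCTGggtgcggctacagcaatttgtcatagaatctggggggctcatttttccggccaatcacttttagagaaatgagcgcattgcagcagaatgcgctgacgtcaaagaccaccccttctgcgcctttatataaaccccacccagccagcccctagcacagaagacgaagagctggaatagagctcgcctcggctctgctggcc
Dlk1: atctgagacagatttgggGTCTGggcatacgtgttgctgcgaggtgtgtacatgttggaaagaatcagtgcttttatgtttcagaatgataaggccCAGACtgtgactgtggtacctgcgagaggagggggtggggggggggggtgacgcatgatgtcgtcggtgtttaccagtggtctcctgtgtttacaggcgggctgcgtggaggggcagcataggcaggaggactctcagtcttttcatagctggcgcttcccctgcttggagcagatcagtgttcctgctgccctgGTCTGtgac
The printed windows held 13 CpG dinucleotides for Meg3 and 9 for Dlk1, against a median of 7 over all windows. The second Meg3 window held 1. These letters are a description and say nothing of binding.

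Genes known to keep or read the imprint were next described from a list of 16. By the rule above 3 of these were called higher in DKO and none lower, with a median log2 fold change of 0.04. Over all genes tested the shares were 7.34% and 8.03%, to be set beside this and each later list. Dnmt3l, a cofactor of de novo DNA methylation, rose from 14331 ± 253 to 23260 ± 424 normalized reads (SD, n = 3), a log2 fold change of 0.70. Tet2, which oxidizes methylated cytosine, rose from 840 ± 25.6 to 1310 ± 38.3 (log2 fold change 0.64), and Dppa3, a protector of methylation in the early embryo, from 142 ± 10.7 to 612 ± 55.3 (log2 fold change 2.09). Zfp57, a zinc finger protein that binds methylated imprinting control regions, was under the fold threshold at 0.53 ± 0.04 (SE) on the log2 scale. Aff3, which binds at this locus, had a log2 fold change of -0.42 ± 0.04 (SE), also under the threshold. Smaller differences at an adjusted p under 0.05 (limma) went both ways. Dnmt3a, Dnmt3b and Tet3 had log2 fold changes of -0.24, -0.11 and -0.21, while Dnmt1 and Uhrf1 had 0.09 and 0.10.

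Of 5 Polycomb genes none was called, and Jarid2 had the largest log2 fold change among them at 0.48. Of 6 genes of thyroid hormone handling, the pathway of Dio3, 4 were tested and none was called. Their median log2 fold change was -0.36, and the thyroid hormone transporter Slc16a10 went from 434 ± 14.6 to 294 ± 6.58 normalized reads (SD, n = 3), a log2 fold change of -0.56. Of 8 other PP2A genes, namely 4 B56 regulatory subunits like Ppp2r5c and the catalytic and scaffold subunits, none was higher and only the B56 subunit Ppp2r5a was lower, from 3512 ± 64.5 to 1990 ± 3.14 normalized reads (SD, n = 3).

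Of 8 genes related to Rtl1 by their retrotransposon origin, 7 were tested, 3 were called higher and none lower. Among all genes tested 7.34% were called higher. Peg10, an imprinted gene on another chromosome, rose from 2076 ± 99.6 to 4769 ± 165 normalized reads (SD, n = 3), a log2 fold change of 1.20. The other higher genes were Rgag4 (the older symbol of Rtl5) and Cxx1c (of Rtl8c), both low at 6.31 and 14.1 normalized reads in DKO. Among 7 relatives of Dlk1, Egfl6 was higher (log2 fold change 1.35), and the Notch ligands Dll1 (-1.18) and Dll3 (-1.74) were lower.

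Genes whose values over the 6 libraries were closest to Meg3 were sought among 11929 genes averaging 100 or more normalized reads. The measure was the root mean square difference of log2 values after subtracting the WT mean of each gene. It thus includes the size of the difference between genotypes. The closest genes were Btn2a2 (0.03), Lurap1l (0.05), Itga9 (0.06), Tcf7l2 (0.06) and the Rian snoRNA AF357426 (0.06). Rian ranked 43 (0.08) and Mirg 1221 (0.16), so many genes outside the cluster followed Meg3 as closely as its neighbours did. Closest to Dlk1 were Iqsec2 (0.06), Psd4 (0.06), Gpr161 (0.07), Zdhhc8 (0.07) and Cnga3 (0.07), while Meg3 ranked 3281 (0.19).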

How the data were processed

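RNA-seq libraries of 3 WT and 3 DKO EpiLC differentiations were analysed. The authors removed ribosomal reads with bowtie2, aligned to mm10 with STAR, removed duplicates with Samtools and counted reads over refGene gene bodies, read here as including introns. The libraries were stranded, but software versions and the strand setting of the counting step were not stated. The deposited signal is a read count divided by 1 DESeq2 size factor per library, unscaled for length. Dividing by the value of 1 read gave whole reads for 100% of values (tolerance 0.001). Among entries of 1 to 50 reads only 27.4% to 29.6% of counts were odd, so mates were apparently counted separately and reads are not independent molecules. A deposited table of the authors' own comparison was not used. The 138 rows without a symbol (0.500% to 0.532% of reads) were left out of tests and totals.

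Log2(value + 1) was tested with limma 3.58.1 (R 4.3.3, trend, two-sided) over 25361 entries that passed filterByExpr of edgeR 4.0.16, with Benjamini-Hochberg adjustment over all of them. Genes are counted as 1 entry per symbol, and fold changes of low genes are understated by the pseudocount of 1. The count tests of edgeR and DESeq2 1.42.0 on recovered reads were alternatives. Replicate numbers did not pair the libraries.

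Named are the 8 members, up to 6 short entries with the most reads, those opposite Rtl1, the 5 tested neighbours on each side and Smad3. Up to 5 genes of each list, with more of the imprint and fibroblast lists, and the 5 most alike genes are named as well. Members and lists were chosen with earlier results of these data known. Positions came from RefSeq GRCm38.p6 and GENCODE M21.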

Additional observations from a re-analysis of the deposited data

How the results depend on the processing

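The directions of Meg3, Rian, Mirg, Dlk1, Begain and Ppp2r5c were the same under all 15 alternatives each, which were the tests of edgeR and DESeq2, other scalings, pseudocounts of 0.1 and 10, no filter on low values, 1 entry per symbol, a replicate block and leaving out each library. Their log2 fold changes ranged from 0.34 to 0.49 for Meg3, 0.43 to 0.48 for Rian, 0.56 to 0.69 for Mirg, 0.16 to 0.33 for Dlk1, -0.19 to -0.04 for Begain and 0.05 to 0.09 for Ppp2r5c. The adjusted p of Ppp2r5c ranged from 0.0112 to 0.192, so that it passed 0.05 in some of them, always under the fold threshold. When 1 library was left out, Dio3 ranged from -0.10 to 0.24, with the sign reversed in 4 of 6 cases, Mirg from 0.56 to 0.69, and the count of called members from 0 to 1. The difference in the log2 ratio of Meg3 to Dlk1 ranged from 0.07 to 0.25 over its alternatives, with exact permutation p-values from 0.3 to 0.6, and that of non-coding to coding reads from 0.16 (without WT replicate 3) to 0.37 (per kb). Testing against a fold of 1.5 itself left 1121 changed genes and 0 members, and dropping the fold threshold gave 9133 genes and 3 members, in place of 2619 and 1. Called short entries of the cluster, 33 in the report, numbered 35 with edgeR, 29 with DESeq2, 14 with a pseudocount of 10 and 0 against a fold of 1.5. All that were tested stayed positive except without a filter on low values, where 63 of 66 were. No scaling moved the median of all genes by more than 0.01. Libraries with the same replicate number did not deviate together (correlations of 0.0088, -0.0293 and 0.0365 over 11930 genes). With a replicate block 2626 genes and 1 member were called, and the log2 fold change of Mirg was 0.64, so the block changed no call on a member. Rtl1 passed no filter, and only the fit without a filter gave it a value (0.03, adjusted p 0.965).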

Other observations

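From Mir379 to Mir329, WT replicate 1 was the lowest WT library for 7 of the 8 plus-strand hairpin entries, all but Mir758. Mir379 had 3.22 normalized reads there against 9.11 and 7.47, Mir411 5.37 against 13.7 and 12.8, and Mir1197 6.45 against 16.5 and 16.5, while the DKO libraries had 8.81 to 9.69, 16.1 to 17.9 and 19.7 to 22.1. Of the 20 entries from there to Mirg, WT replicate 1 was the lowest WT library for 9 and the highest for 4, among them Mir1193 with 46.2 against 40.4 and 40.0. Without this library 24 short entries of the cluster were called higher. These entries were chosen after their values were seen.

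Beyond Mirg, the antisense RNA Dio3os had 2.17 ± 1.04 normalized reads in WT and 1.43 ± 1.65 in DKO (SD, n = 3), with 0 to 6 reads per library, and was not tested.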
